A study of Mus musculus with 37 samples.

Results

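The genes described here are 34 neurotransmitter and amino acid transporter genes of the solute carrier families Slc1, Slc6, Slc17, Slc18 and Slc38. They were taken by name from a count table of 48795 genes, with Ensembl identifiers paired with symbols by GENCODE M21, and were arranged by the substrate they carry and by the cell type known to express them. Expression was measured by poly-A RNA-seq of whole hippocampus from adult male mice on a C57BL/6J background. The Kdm1a-ifKOs (n = 3 mice) carried floxed Kdm1a alleles, with exons 5 and 6 between the loxP sites, and the tamoxifen-inducible Cre transgene Camk2a-creERT2, whose promoter is active in forebrain excitatory neurons. The control littermates (n = 3 mice), labelled WT, lacked the Cre transgene and received the same tamoxifen. Tamoxifen was given from 8 weeks of age in 5 doses, and the age at collection of these 6 libraries is not given in the sources used here. In addition, a CTCF ChIA-PET library from sorted hippocampal excitatory neurons of tamoxifen-treated mice with intact Kdm1a (Camk2a-creERT2 with a nuclear Sun1/sfGFP tag), which is 1 library with no replicate, gave the chromatin loops near these genes.

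Transporters of the plasma membrane take a transmitter back up from the extracellular space and so end its action, while vesicular transporters load it into synaptic vesicles. At a glutamatergic synapse, astrocytes clear most of the glutamate through GLT-1 and GLAST and convert it to glutamine. Glutamine then leaves the astrocyte through transporters such as SNAT3 and returns to neurons, where it is made into glutamate again and packed by a vesicular glutamate transporter (VGLUT). The cell bodies of neurons that release dopamine, noradrenaline or serotonin lie outside the hippocampus, which receives their axons.

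Promoter sequence is shown for 4 vesicular transporters, since Slc18a2, Slc18a3 and Slc17a6 gave some of the largest changes among the 34 and the starts of Slc17a6 (VGLUT2) and Slc17a7 (VGLUT1) lie in anchors of CTCF loops. Each line holds the 250 bases upstream of the RefSeq start (GRCm38.p6), 5′ to 3′ on the strand of the gene, with every CG dinucleotide in capitals. The RefSeq starts of these genes need not equal the GENCODE starts given below.
Slc17a6, chr7:51621580-51621829, plus strand: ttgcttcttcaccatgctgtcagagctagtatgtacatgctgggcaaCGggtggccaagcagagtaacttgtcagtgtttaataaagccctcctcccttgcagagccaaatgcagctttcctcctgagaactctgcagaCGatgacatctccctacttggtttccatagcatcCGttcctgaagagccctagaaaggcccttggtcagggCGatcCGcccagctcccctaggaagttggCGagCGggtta
Slc17a7, chr7:45163671-45163920, plus strand: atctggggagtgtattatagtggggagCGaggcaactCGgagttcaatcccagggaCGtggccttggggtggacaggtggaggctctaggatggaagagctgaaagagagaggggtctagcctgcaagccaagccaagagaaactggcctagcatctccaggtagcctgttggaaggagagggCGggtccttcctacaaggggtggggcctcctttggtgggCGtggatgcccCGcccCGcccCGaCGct
Slc18a2 (VMAT2), chr19:59260628-59260877, plus strand: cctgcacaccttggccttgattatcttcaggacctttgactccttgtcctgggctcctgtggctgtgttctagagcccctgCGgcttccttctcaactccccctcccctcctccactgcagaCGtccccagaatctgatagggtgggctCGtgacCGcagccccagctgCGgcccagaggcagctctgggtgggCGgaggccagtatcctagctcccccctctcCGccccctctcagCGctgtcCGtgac
Slc18a3 (VAChT), chr14:32464851-32465100, minus strand: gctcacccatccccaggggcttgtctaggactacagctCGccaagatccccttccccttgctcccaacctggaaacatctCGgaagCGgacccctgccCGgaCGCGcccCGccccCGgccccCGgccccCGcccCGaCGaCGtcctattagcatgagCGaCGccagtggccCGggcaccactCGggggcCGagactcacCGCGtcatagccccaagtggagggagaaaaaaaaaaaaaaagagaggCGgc
The Slc18a3 window held 21 CG, a number reached by 16.3% of the 32851 RefSeq promoter windows of this length. The windows of Slc17a7 and Slc18a2 each held 9 (reached by 40.3% of windows) and that of Slc17a6 held 7 (46.3%), against a median of 6 over all windows. Not shown are a second Slc17a6 window with 3 CG and the windows of Slc17a8 (VGLUT3), with 5 and 3. The letters CG were searched on 1 strand, since they read the same on both, and their number is a description of these windows and not a measure of methylation.

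Each RNA library held 18985542 to 19469947 counted reads over 23412 to 23939 detected genes. Counts of Kdm1a in the Kdm1a-ifKOs were 764, 726 and 748, against 1521, 1545 and 1481 in controls (log2 fold change −1.07, SE 0.056). Whole hippocampus also holds glia, interneurons and other cells in which the Camk2a promoter is not active. The excitatory neuron marker Camk2a stood at 2471 ± 67.5 TPM (a transcript level scaled by exon length and library size; SD, n = 3) in controls and 2577 ± 141 in Kdm1a-ifKOs. In bulk tissue, fewer cells of a type and less RNA per cell cannot be told apart. Kdm1a-ifKO replicate 2 stood apart in genes of the meninges. All 10 genes of a meningeal list were highest in that library, where their summed level was 250.7 CPM (counts scaled to library size), against 83.0 to 135.7 in the other 5 libraries. Results that rest on this library are given with and without it.

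Of the 34 genes, 25 had enough counts to enter the test and 9 did not. The test was edgeR's quasi-likelihood F test over 16799 genes, with Benjamini-Hochberg adjusted p-values over all of them and a threshold of 0.05, and every log2 fold change below is Kdm1a-ifKO against control. Higher expression passed the test for 5 transporter genes (Slc18a2, Slc6a7, Slc1a3, Slc38a3 and Slc1a4), where 6.04% of all tested genes were called higher. Lower expression passed for 3 (Slc17a6, Slc17a8 and Slc38a1), where 2.82% of all tested genes were called lower. At an unadjusted p under 0.05 there were 10. The median log2 fold change was 0.10 over the 25 transporter genes and −0.0034 over all tested genes, and 18 of the 25 values were above 0. The 3 libraries of one genotype all lay above those of the other for 6 transporter genes higher and 4 lower in Kdm1a-ifKOs, where 15.7% and 14.4% of all tested genes separated in this way. Slc18a2 and Slc6a7 kept an adjusted p under 0.05 whichever library was left out, whereas each of the other 6 lost it without at least 2 of the 6 libraries in turn.

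**Figure D1:**
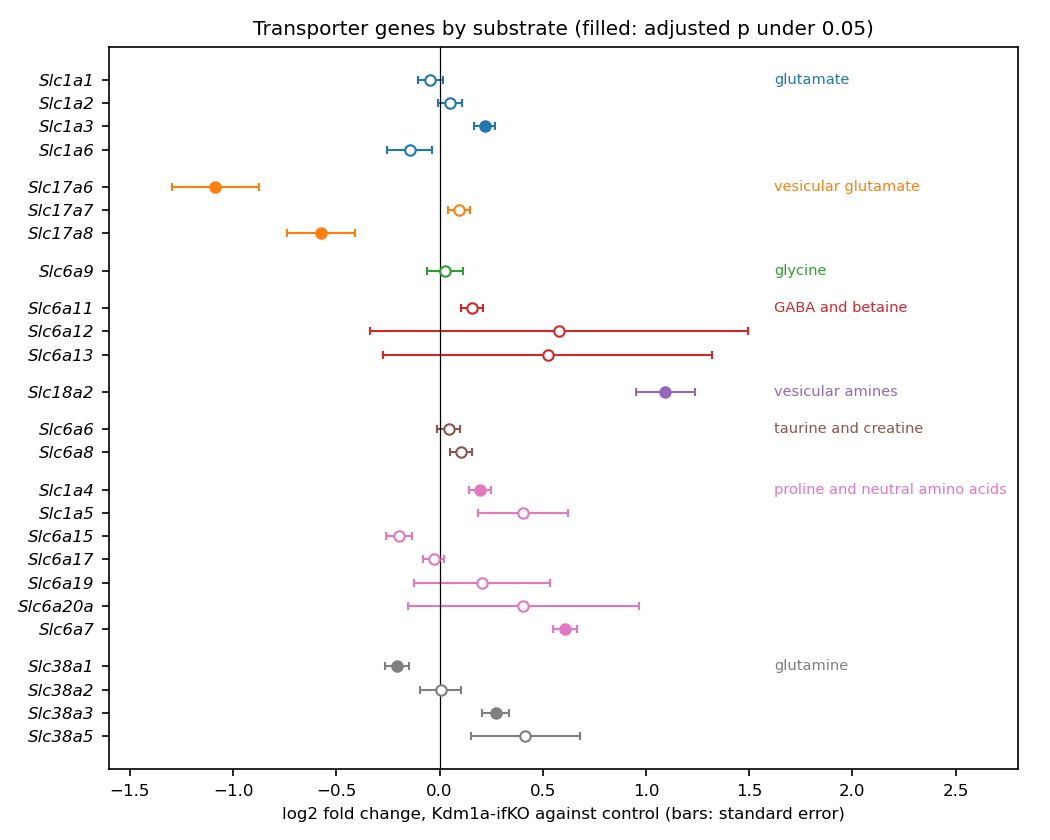
Log2 fold change of each of the 25 tested transporter genes in Kdm1a-ifKOs against controls (x axis; bars are standard errors), grouped and coloured by substrate, with filled points for an adjusted p under 0.05. Slc18a2 lies at 1.09 and Slc17a6 at −1.09, while the long bars of Slc6a12, Slc6a13 and Slc6a20a span 0.

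The levels of these genes in control hippocampus covered more than 3 orders of magnitude. In TPM, 7 genes stood above 100, 10 between 10 and 100, 6 between 1 and 10, and 11 below 1. At the top were Slc17a7, the vesicular glutamate transporter of cortical and hippocampal principal neurons, at 1034 ± 52.3 TPM (SD, n = 3), and Slc1a2 (GLT-1), the main astrocytic glutamate transporter, at 936 ± 81.3. The libraries of these 2 genes overlapped, so that their order was not resolved. Slc1a3 (GLAST) followed at 383 ± 17.8 TPM, Slc6a17 (NTT4), a vesicular transporter of neutral amino acids, at 245 ± 12.6, Slc6a11 (GAT3) at 135 ± 5.41, Slc6a7 at 121 ± 3.46 and Slc6a8, the creatine transporter, at 101 ± 5.87. Of the 33 pairs of neighbours in this order, 18 overlapped between control libraries, including every pair among the 11 genes below 1 TPM.

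**Figure D2:**
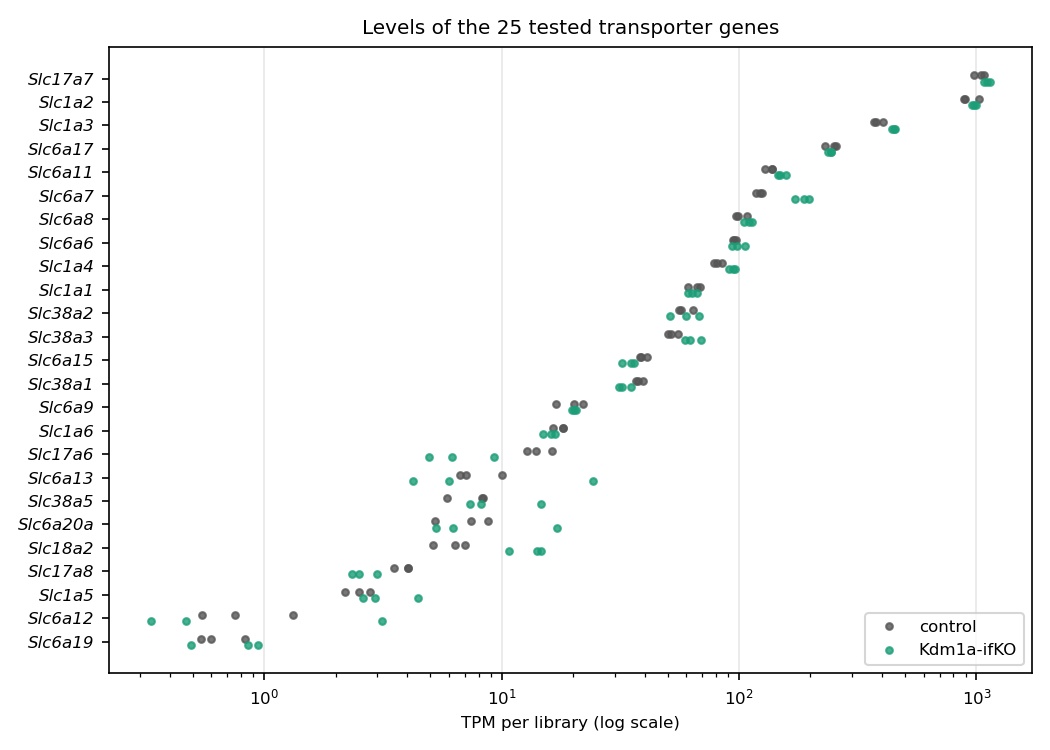
Level in TPM on a log scale (x axis) of the 25 tested transporter genes, ordered by their control mean, with 1 point for each of the 3 control (grey) and 3 Kdm1a-ifKO (green) libraries. The green points of Slc17a6 lie to the left of the grey ones and those of Slc18a2 and Slc6a7 to the right, and 1 green point of Slc6a12, Slc6a13 and Slc6a20a lies far to the right.

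Among the vesicular glutamate transporters, Slc17a6 fell and the far more abundant Slc17a7 did not pass the test. Slc17a6 (chr7:51622006-51671119, plus strand), which encodes VGLUT2, the vesicular transporter of thalamic and many other subcortical neurons, had 332, 422 and 356 counts in controls and 131, 245 and 164 in Kdm1a-ifKOs. All 3 Kdm1a-ifKOs lay below all 3 controls, and replicate 2 was the highest of the Kdm1a-ifKOs. The log2 fold change was −1.09 (SE 0.210, adjusted p = 0.0215 by edgeR). Without Kdm1a-ifKO replicate 2 it was −1.37 (adjusted p = 2.25e-05), and the call was lost without control replicate 3 (adjusted p = 0.0939) or Kdm1a-ifKO replicate 3 (adjusted p = 0.115). Slc17a7 had 27916, 26991 and 24766 counts in controls and 30092, 28390 and 29230 in Kdm1a-ifKOs. Its log2 fold change was 0.09 (SE 0.052, adjusted p = 0.295). Slc17a8 (VGLUT3), found in scattered interneurons and in monoaminergic and cholinergic cells, had 80, 91 and 90 counts in controls and 69, 54 and 58 in Kdm1a-ifKOs. The groups did not overlap, and the log2 fold change was −0.57 (SE 0.165, adjusted p = 0.0474). This call was near the threshold and was lost when any 1 of the 6 libraries was left out (adjusted p 0.0558 to 0.142). DESeq2 did not call Slc17a8 (adjusted p = 0.136). By edgeR the call was also lost with upper-quartile normalization, a minimum of 10 counts in all or a replicate block (adjusted p 0.0509 to 0.0919). It was kept with no filter on low counts (adjusted p = 0.0355).

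As a share of the summed TPM of the 3 VGLUT genes, Slc17a6 made up 1.17, 1.53 and 1.41% in controls and 0.432, 0.853 and 0.556% in Kdm1a-ifKOs. Slc17a7 therefore supplied 98.3 ± 0.219% of VGLUT transcripts in controls and 99.2 ± 0.196% in Kdm1a-ifKOs (SD, n = 3). With 3 mice against 3 no exact permutation test of such a share can go below p = 0.10. Thalamic neurons lie close to the hippocampus and express Slc17a6. Of 9 tested thalamic marker genes, 1 passed, Prkcd, a protein kinase C gene, with a log2 fold change of 0.57 (adjusted p = 0.00186). Their summed level was 141 to 151 CPM in controls and 160 to 172 in Kdm1a-ifKOs. Without Prkcd it was 106 to 120 CPM in controls and 114 to 127 in Kdm1a-ifKOs, which overlap. Cajal-Retzius cells are glutamatergic and also express Slc17a6. Their 4 tested markers had a median log2 fold change of 0.12, and the summed level of their list was 101 to 112 CPM in controls and 90.4 to 109.7 in Kdm1a-ifKOs. Of 10 interneuron markers, Vip (−0.46) and Npy (−0.31), both neuropeptide genes, fell, and the summed level was 1113 to 1195 CPM in controls and 1052 to 1094 in Kdm1a-ifKOs. The call of Vip was lost without Kdm1a-ifKO replicate 1 or 3 (adjusted p 0.0630 and 0.0548). The parts of thalamic and Cajal-Retzius cells in the Slc17a6 difference and of interneurons in the Slc17a8 difference were not tested.

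Of the vesicular amine transporters, Slc18a2 rose, and the others had too few counts for the main test. Slc18a2 (chr19:59260896-59296012, plus strand) encodes VMAT2, which loads dopamine, noradrenaline, serotonin and histamine into vesicles. It had 129, 175 and 156 counts in controls and 362, 276 and 376 in Kdm1a-ifKOs. Every Kdm1a-ifKO lay above every control, and the lowest was replicate 2. The log2 fold change was 1.09 (SE 0.145, adjusted p = 6.95e-04), and it ranged from 0.98 to 1.22 with each library left out. Slc18a3 (chr14:32462438-32464850, minus strand), the vesicular acetylcholine transporter VAChT, is a short gene within the first intron of Chat, the gene of the enzyme that makes acetylcholine. It had 2, 0 and 0 counts in controls and 16, 10 and 7 in Kdm1a-ifKOs, too few for the filter of the main test. The groups did not overlap. The ratio of the summed counts was 16.0, with a 95% counting interval from 4.09 to 137 that covers counting error only. Fitted with no filter on low counts, Slc18a3 was called higher (adjusted p = 5.45e-05 by edgeR, where 5.03% of the 28781 genes were called higher), and with a minimum of 10 counts in all its adjusted p was 0.00767. DESeq2 gave it no adjusted p. Chat itself had 1, 3 and 3 counts in controls and 0, 0 and 1 in Kdm1a-ifKOs, and no exon of Chat overlaps Slc18a3. Slc18a1 (VMAT1), the transporter of chromaffin and other endocrine cells, had 1 to 5 counts in every library.

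The plasma membrane transporters of the monoamines were near the limit of detection. Slc6a3, the dopamine transporter DAT, had 5, 2 and 9 counts in controls and 9, 24 and 18 in Kdm1a-ifKOs, so that the highest control equalled the lowest Kdm1a-ifKO. The ratio of summed counts was 3.09 (95% counting interval 1.73 to 5.80). It was called higher with no filter (adjusted p = 0.0071) but not with a minimum of 10 counts in all (adjusted p = 0.0640) or by DESeq2 (adjusted p = 0.143). Slc6a4, the serotonin transporter SERT, had 0 or 1 count in controls and 1 to 3 in Kdm1a-ifKOs, and Slc6a2, the noradrenaline transporter NET, had 1 count in all 6 libraries together. At this depth no difference in either could be detected.

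**Figure D3:**
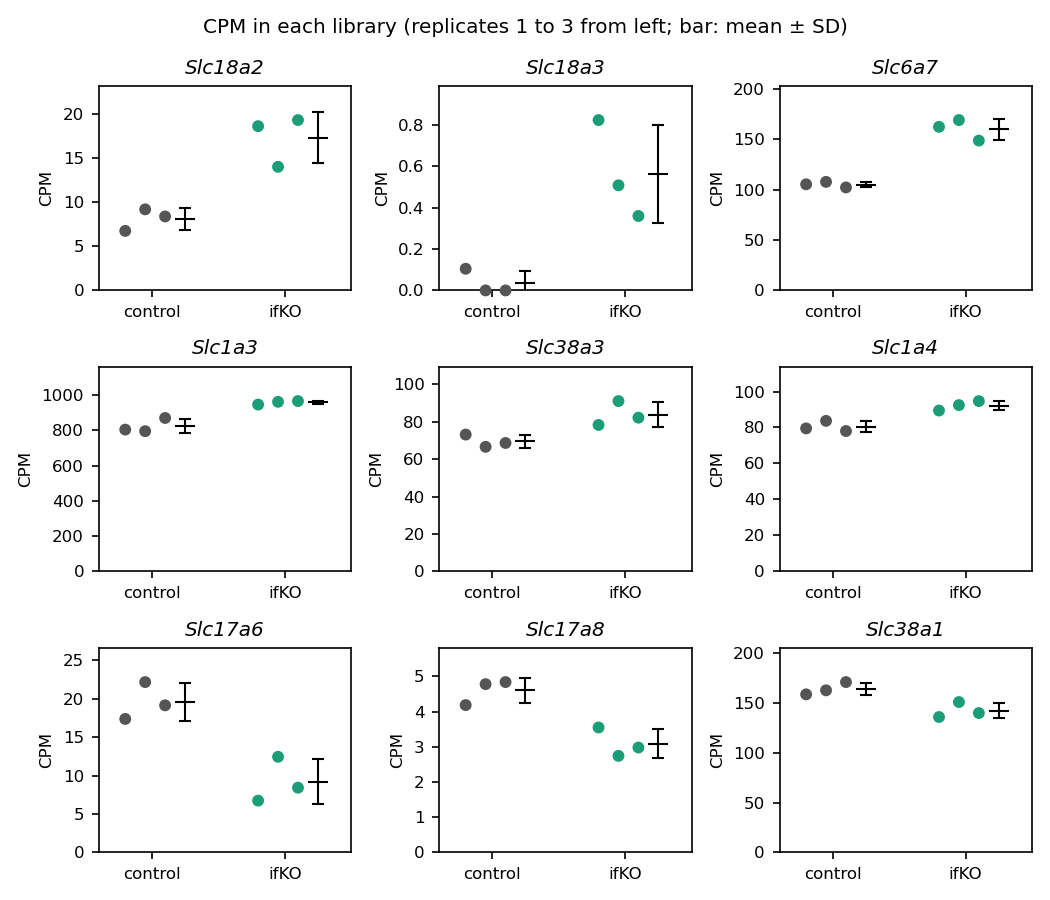
CPM in each library (points, replicates 1 to 3 from left to right in each genotype) with the mean and SD of each group (bars) for the 8 transporter genes that passed the test and for Slc18a3, each axis starting at 0. Groups do not overlap in any panel, with Slc18a2, Slc18a3, Slc6a7, Slc1a3, Slc38a3 and Slc1a4 higher and Slc17a6, Slc17a8 and Slc38a1 lower in the Kdm1a-ifKOs.

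Enzymes and further transporters of the same transmitters were counted from a list of 40 genes, 36 of which were tested. Of these, 7 (19.4%) passed as higher and 2 (5.56%) as lower, against 6.04% and 2.82% of all tested genes, and their median log2 fold change was 0.07. The largest change was in Slc10a4, a vesicle protein of cholinergic and monoaminergic neurons, which went from 4, 4 and 2 counts in controls to 63, 60 and 64 in Kdm1a-ifKOs (log2 fold change 4.13, adjusted p = 1.38e-06). Dbh, which converts dopamine to noradrenaline, went from 10, 4 and 3 counts to 18, 17 and 18 (1.57, SE 0.419, adjusted p = 0.0339). DESeq2 did not call it (adjusted p = 0.112), and among the leave-outs it was called without control replicate 1 (2.24, adjusted p = 0.0146) but not when any of the other 5 libraries was left out (1.29 to 1.60, adjusted p 0.0601 to 0.111). Ache, which breaks down acetylcholine (0.39, adjusted p = 4.4e-04), Maob, which oxidises amines (0.32, adjusted p = 0.0176), and Slc29a4, a low-affinity monoamine transporter (0.40, adjusted p = 0.00533), also rose. Of these, Maob lost its call without control replicate 1 or Kdm1a-ifKO replicate 2 (adjusted p 0.0526 and 0.0517). Genes of transmitter synthesis and choline uptake did not pass the test. Th, the rate-limiting enzyme of catecholamine synthesis, had 11 to 22 counts in controls and 11 or 12 in Kdm1a-ifKOs (log2 fold change −0.56, adjusted p = 0.349). Tph2, its counterpart for brain serotonin, gave 0.13 (adjusted p = 0.845), and Slc5a7, the choline transporter of cholinergic terminals, gave 0.15 (adjusted p = 0.792).

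Slc6a7 showed the smallest adjusted p of the transporter genes. It encodes the high-affinity proline transporter PROT of glutamatergic terminals and lies on chromosome 18 (60995380 to 61014222, minus strand). It had 2016, 2054 and 1904 counts in controls and 3161, 3334 and 2899 in Kdm1a-ifKOs, with no overlap. The log2 fold change was 0.61 (SE 0.058, adjusted p = 1.59e-05), and leaving out each library gave 0.56 to 0.65. Its level of 121 TPM in controls rose to 186 ± 13.1 TPM in Kdm1a-ifKOs, so that it passed Slc6a11 (151 ± 5.86) in the order of levels. The other neuronal transporters of neutral amino acids did not pass. Slc6a15 (B0AT2) had 1431, 1527 and 1390 counts in controls and 1374, 1329 and 1216 in Kdm1a-ifKOs, all below the controls, with a log2 fold change of −0.20 (SE 0.061, adjusted p = 0.0650). Slc6a17 gave −0.03 (SE 0.051, adjusted p = 0.776). Slc1a4 (ASCT1), a neutral amino acid exchanger that carries serine, rose from 1520, 1594 and 1452 counts to 1739, 1821 and 1844 (log2 fold change 0.20, SE 0.054, adjusted p = 0.0376). This small difference was lost when any 1 library was left out (adjusted p 0.0572 to 0.166) and by DESeq2 (adjusted p = 0.0544). Slc1a5 (ASCT2) had 44 to 55 counts in controls and 53, 91 and 60 in Kdm1a-ifKOs, the highest in replicate 2 (0.40, adjusted p = 0.280, and 0.14 without that library).

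Among the glutamate transporters of the plasma membrane, the astrocytic Slc1a3 rose. Slc1a3 had 15388, 15157 and 16201 counts in controls and 18414, 18957 and 18826 in Kdm1a-ifKOs. The groups did not overlap, and the log2 fold change was 0.22 (SE 0.050, adjusted p = 0.0161). The call was lost without control replicate 1 or 2 or Kdm1a-ifKO replicate 1 or 3 (adjusted p 0.0503 to 0.0960). Slc1a2 had 56325, 55675 and 63593 counts in controls and 61277, 64047 and 62618 in Kdm1a-ifKOs, where control replicate 3 reached the range of the Kdm1a-ifKOs (0.05, SE 0.060, adjusted p = 0.660). GLAST thus made up 29.1 ± 0.808% of the summed TPM of GLT-1 and GLAST in controls and 31.5 ± 0.192% in Kdm1a-ifKOs (SD, n = 3), or 41.1 and 43.9% with the longest transcript as gene length. The neuronal Slc1a1 (EAAT3) gave a log2 fold change of −0.04 (SE 0.059, adjusted p = 0.702) and Slc1a6 (EAAT4), best known from Purkinje cells, −0.15 (SE 0.109, adjusted p = 0.447). Slc1a7 (EAAT5), a retinal transporter, had 0 to 3 counts.

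The glutamine transporters of astrocytes and neurons moved in opposite directions. Slc38a3 (SNAT3), which releases glutamine from astrocytes, had 1398, 1268 and 1277 counts in controls and 1522, 1793 and 1600 in Kdm1a-ifKOs (log2 fold change 0.27, SE 0.066, adjusted p = 0.0211). Its highest library was Kdm1a-ifKO replicate 2, without which the log2 fold change was 0.21 and the adjusted p 0.0853. It was also lost without control replicate 2 (adjusted p = 0.0855) or Kdm1a-ifKO replicate 3 (adjusted p = 0.0568). Slc38a1 (SNAT1), found mainly in neurons, had 3031, 3096 and 3179 counts in controls and 2641, 2971 and 2722 in Kdm1a-ifKOs (−0.21, SE 0.056, adjusted p = 0.0370). The groups did not overlap for either gene. The call of Slc38a1 was lost without control replicate 2 or 3 or Kdm1a-ifKO replicate 1 or 3 (adjusted p 0.0670 to 0.151). The ratio of Slc38a3 to Slc38a1 in TPM was 1.51, 1.34 and 1.31 in controls and 1.88, 1.97 and 1.92 in Kdm1a-ifKOs. With the longest transcript as gene length it was 0.978 ± 0.0746 in controls and 1.36 ± 0.0315 in Kdm1a-ifKOs (SD, n = 3), so that the order of both genes in controls depends on the length used. Slc38a2 (SNAT2), made by many cell types and 44.5 kb from Slc38a1 on chromosome 15, gave 0.01 (SE 0.099, adjusted p = 0.981). On the enzyme side of this cycle, Gls2, which makes glutamate from glutamine, fell by 0.34 on the log2 scale (adjusted p = 0.0367), a call lost without control replicate 1 or 3 or Kdm1a-ifKO replicate 1 or 3 (adjusted p 0.0741 to 0.136) and by DESeq2 (adjusted p = 0.0521). Glul, the glutamine synthetase of astrocytes, gave 0.15 (adjusted p = 0.0828), with all 3 Kdm1a-ifKOs above the controls.

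No GABA or glycine transporter gene passed the test by edgeR or DESeq2, and 1 had an unadjusted p under 0.05, Slc6a11. Slc6a11 (GAT3), the astrocytic GABA transporter, had 3329, 3342 and 3049 counts in controls and 3615, 3893 and 3683 in Kdm1a-ifKOs. The groups did not overlap, and the log2 fold change of 0.16 (SE 0.052) missed the threshold (adjusted p = 0.0782). Slc6a9 (GlyT1), a mainly glial glycine transporter, gave 0.03 (SE 0.088, adjusted p = 0.893), and its gene shares exonic sequence with 3 genes on the other strand. Slc6a5 (GlyT2), of glycinergic neurons, had 1 to 4 counts. Gldc, of the glycine cleavage system, rose by 0.30 on the log2 scale (adjusted p = 0.00642). Slc6a6, the taurine transporter, gave 0.04 (SE 0.054, adjusted p = 0.670) and Slc6a8 0.10 (SE 0.055, adjusted p = 0.266), while Gamt, which makes creatine, rose by 0.56 (adjusted p = 0.0121, and 0.0597 without Kdm1a-ifKO replicate 3).

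By cell type, 2 of the 5 astrocytic transporters rose (Slc1a3 and Slc38a3), all 5 log2 fold changes were above 0 and their median was 0.16. Markers of astrocytes moved the same way. Of 10, S100b (0.26), Sox9 (0.38) and Aldoc (0.20) rose, all 10 log2 fold changes were above 0 with a median of 0.17, and the summed level was 2704 to 2902 CPM in controls and 3060 to 3380 in Kdm1a-ifKOs. Of 6 microglial markers, Cx3cr1 (0.27), Tmem119 (0.42) and Csf1r (0.33) rose. All 6 log2 fold changes were above 0 with a median of 0.33. Their summed level was 292 to 318 CPM in controls and 334 to 419 in Kdm1a-ifKOs. Sox9 kept its call whichever library was left out. S100b lost it without control replicate 2 or Kdm1a-ifKO replicate 3, and Aldoc without control replicate 2 or any 1 Kdm1a-ifKO. Cx3cr1, Tmem119 and Csf1r each lost it without at least 4 of the 6 libraries in turn. The adjusted p rose up to 0.170 over these genes. The part of the astrocyte markers in the differences of Slc1a3, Slc38a3 and Slc6a11 was not tested. The neuronal class held 15 genes, 10 of them tested, of which 2 rose and 3 fell, with a median of −0.09. Of 10 excitatory neuron markers, Neurod6, a transcription factor gene, fell (−0.36) and Rasgrf2, which encodes a Ras exchange factor, rose (0.22, a call lost in 5 of the 6 leave-outs), and the summed level was 8174 to 8705 CPM in controls and 7758 to 8791 in Kdm1a-ifKOs.

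Transporters of epithelia, vessels and meninges followed 1 library. Slc6a13 (GAT2), of the meninges and liver, had 99, 93 and 137 counts in controls and 85, 346 and 60 in Kdm1a-ifKOs, and Slc6a12 (BGT1), the betaine carrier 5.34 kb away on chromosome 6, had 8, 11 and 19 against 7, 47 and 5. Slc6a20a (SIT1), a proline and imino acid carrier, had 146, 103 and 169 counts in controls and 106, 343 and 125 in Kdm1a-ifKOs. Slc38a5 (SNAT5), a glutamine carrier of brain vessels, had 90, 89 and 62 against 81, 161 and 90. In each of these the highest library was Kdm1a-ifKO replicate 2. This held for 5 of the 7 genes of this class and for all 10 meningeal genes, where 16.1% of all tested genes were highest in that library. With all libraries the log2 fold changes were 0.52 for Slc6a13, 0.58 for Slc6a12, 0.41 for Slc6a20a and 0.42 for Slc38a5, with adjusted p from 0.376 to 0.758. Without that library they were −0.64, −1.10, −0.31 and 0.05, with adjusted p from 0.104 to 0.918. The summed level of 8 endothelial genes was 257.7 CPM in the same library, against 213 to 226 in the others. Of 8 tested markers of the choroid plexus, a secretory epithelium beside the hippocampus, Kl rose (1.28, adjusted p = 1.32e-07), and the summed level of their list was 206 to 262 CPM in controls and 231 to 261 in Kdm1a-ifKOs. The part of meningeal, vascular and choroid plexus tissue in these values was not tested. Slc6a19 (B0AT1), the neutral amino acid carrier of gut and kidney, had 13 to 20 counts in controls and 12, 23 and 21 in Kdm1a-ifKOs (log2 fold change 0.21, adjusted p = 0.753, and 0.03, adjusted p = 0.975, without replicate 2). Slc6a18 had at most 1 count in a library. Slc6a14 had no count in any library, where a count of 0 still allows an expected count of up to 3.

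**Figure D4:**
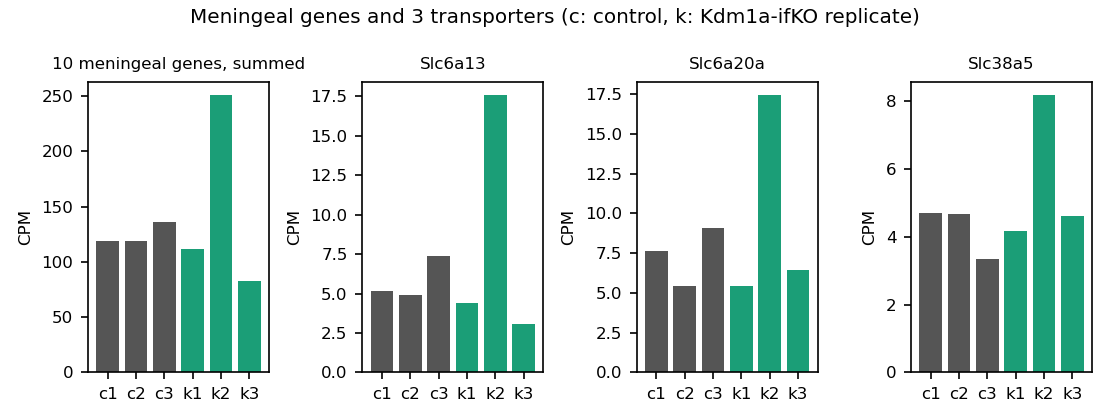
Summed CPM of 10 meningeal genes and CPM of Slc6a13, Slc6a20a and Slc38a5 in each library (bars from 0; c, control; k, Kdm1a-ifKO; the number is the replicate). Kdm1a-ifKO replicate 2 is the tallest bar in all 4 panels, with 250.7 CPM for the meningeal genes against 83.0 to 135.7 in the other libraries.

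CTCF is the DNA-binding protein that anchors many chromatin loops, and ChIA-PET counts paired-end tags (PETs) that join 2 of its sites. A loop anchor lay within 10 kb of 21 of the 34 genes (61.8%). Among the 25 tested transporter genes it was 17 (68.0%), against 56.9% of all tested genes with a position. For Slc17a6, the promoter shown above lies inside an anchor at chr7:51615689-51623156 that was joined by 53 PETs to chr7:51815114-51818921, 198 kb away and beyond the 3′ end of the gene. Slc17a7 had 23 loops nearby, 2 of them on its start, and the strongest joined chr7:45159876-45164137, which holds the promoter shown above, to chr7:45196817-45200555 by 23 PETs. Slc1a4 had 3 loops on its start. Slc18a2 and Slc38a1 had none within 10 kb, and Slc18a3 had 3, with at most 5 PETs. Near Slc6a7 lay 11 loops, none of them on its start, and their nearest anchor was 24.5 kb from it. The strongest, with 627 PETs, joined chr18:60917063-60956084 to chr18:60958812-60985713. The latter anchor lies beyond the 3′ end of Slc6a7 and inside Camk2a, and the former overlaps Camk2a too.

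For 18 of the transporter genes, 60 tested genes lay at the far anchors of these loops, and 5 of the 60 (8.33%) passed the test as higher in Kdm1a-ifKOs, near the 6.04% of all tested genes called higher. Arsi, a sulfatase gene joined to the Slc6a7 region by 2 loops with 630 PETs, went from 25, 31 and 26 counts in controls to 271, 255 and 312 (log2 fold change 3.30, SE 0.151, adjusted p = 1.76e-08). Pdgfrb, the receptor gene that marks pericytes, joined to the same region by 12 PETs, rose by 0.39 (adjusted p = 0.0049). Camk2a, joined by 7 of the loops near Slc6a7, gave 0.05 (adjusted p = 0.584). The anchor near Slc6a7 of the loop with 627 PETs, 1 of the 2 that joined Arsi, lies inside Camk2a. The other anchor of that loop overlaps Camk2a as well, so most of the 630 PETs join 2 sites on Camk2a. Kcna7, a potassium channel gene joined to Slc17a7 by 6 PETs, had 1, 0 and 0 counts in controls and 13, 15 and 17 in Kdm1a-ifKOs (adjusted p = 6.53e-04). Flt3l (0.57, joined to Slc17a7 by 3 PETs) and Nkd2 (0.37, joined to Slc6a19 by 4 PETs) also passed. The call of Flt3l was lost in 4 of the 6 leave-outs (adjusted p up to 0.0928) and that of Nkd2 without Kdm1a-ifKO replicate 3 (adjusted p = 0.0700). Gas2, at the far anchor of a Slc17a6 loop with 17 PETs, gave −0.11 (adjusted p = 0.595). The loops were measured in neurons with intact Kdm1a alone, so that their state in Kdm1a-ifKOs was not measured here.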

How the data were processed

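RNA libraries (1 per mouse) were trimmed with cutadapt 1.18, aligned to GRCm38 with HISAT2 2.1.0 and counted with HTSeq 0.11.1 by the authors, who kept reads with a mapping quality over 30 and deposited raw counts per gene. The strand setting is not given in the sources used here, so reads of genes that overlap on opposite strands cannot be told apart. 16 transporter genes overlap another gene, 6 of them in exons. Close paralogues such as Slc6a20a and Slc6a20b may share reads. The authors made the loop table with ChIA-PIPE, and its deposited values are counts of PETs, at least 3 per loop.

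From these counts, edgeR 4.0.16 (filterByExpr, TMM normalization, robust quasi-likelihood fit, genotype as the only factor) tested 16799 genes. DESeq2 1.42.0, other normalizations, other filters, a replicate block and leaving out each library were alternatives. TPM used the summed exon length of GENCODE M21, which matched 99.3% of the identifiers. Scripts were tested on simulated data. Replicates were separate mice, and replicates differed by more than sampling noise.

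The transporter genes and all lists were chosen with earlier results of these data known. Named were all 34 transporter genes, Kdm1a, listed genes with an adjusted p under 0.05, genes overlapping a transporter gene, and loop partners with an adjusted p under 0.05. Other genes were named after their values were seen. Some listed genes are not reported here by name. Promoter sequences came from RefSeq, which held 24 of the 34 genes. The ChIP and 4C samples were not analysed here.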

Additional observations from a re-analysis of the deposited data

How the results depend on the processing

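Over the values of single transporter genes under the alternatives, 257 kept their direction and their side of the threshold, 34 (in 6 genes) kept the direction but lost the call, 1 gained it and 8 changed sign. Slc18a2 and Slc6a7 kept direction and call under every alternative. Leaving out 1 library in turn gave 2 to 5 transporter genes higher and 0 to 2 lower by edgeR. In the 2 fits with 0 lower, which left out control replicate 3 or Kdm1a-ifKO replicate 3, 4 had an unadjusted p under 0.05 (4 also by DESeq2 over all libraries). The listed enzymes and further transporters gave 5 to 7 higher and 0 to 2 lower, and the fit with 0, which left out Kdm1a-ifKO replicate 3, had 3 lower at an unadjusted p under 0.05. Upper-quartile normalization gave 1 transporter gene lower, DESeq2 gave 1 listed gene lower, and Slc6a15 passed with no filter (adjusted p = 0.0357). Log2 fold changes that changed sign, none of them in a called gene, ranged over the leave-outs from −0.067 to 0.11 for Slc6a9, −1.10 to 1.03 for Slc6a12, −0.64 to 0.92 for Slc6a13, −0.31 to 0.69 for Slc6a20a, −0.00398 to 0.082 for Slc6a6 and −0.10 to 0.10 for Slc38a2. For Slc6a9 the sign turned without control replicate 3, for Slc38a2 without control replicate 1 or 2 (−0.02 and −0.04) or the third Kdm1a-ifKO, and for the others without the second Kdm1a-ifKO. Over all genes, 1014 higher and 473 lower calls became 1447 and 1090 with no filter, 735 and 164 when the first Kdm1a-ifKO was left out, and 646 and 137 when the third was. The cause was not tested.

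With the replicate number as a block, 3 transporter genes were called higher and 1 lower, no listed gene was called lower (0 by edgeR, 3 at an unadjusted p under 0.05), and the calls over all genes were 797 higher and 249 lower. Deviations of same-numbered libraries correlated at −0.03, −0.09 and −0.14, and no library correlated best with its own number. The labels give only the number, and whether same-numbered mice shared a litter or batch was not tested. Levels with the longest transcript as gene length placed Slc17a7 at 1422 TPM and Slc1a2 at 833. A loop anchor on the gene body was found for 14 transporter genes, within 50 kb for 31, and at 5 or more PETs for 19.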
